A study of Mus musculus with 18 samples.

Results

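The Cyp4 genes encode cytochrome P450 enzymes that hydroxylate fatty acids and eicosanoids, and 10 of them were examined in mouse liver: Cyp4a10, Cyp4a12a, Cyp4a12b, Cyp4a14, Cyp4a31, Cyp4a32, Cyp4f13, Cyp4f14, Cyp4f15 and Cyp4v3. The genes were chosen by symbol, as the rows that bear these names in both tables of gene counts, out of 24537 symbols held by both tables. All 10 passed the filter on low counts that left 14275 genes to be tested, and each had at least 10 counts in every library. PolyA RNA from whole livers of male C57BL6 mice was sequenced in 4 groups that share strain, sex and tissue: young mice on normal diet (ND, n = 4), young mice on high-fat diet (HFD, n = 5), old mice on ND (n = 5) and old mice on HFD (n = 4). The ND was a Teklad Global rodent chow from Envigo and the HFD the 58Y1 diet from TestDiet, each fed for 9 weeks according to the series record, although the study's methods name another normal diet, from TestDiet. Ages are given here as young and old, the terms of the labels. The labels name no transgene or drug, and each library was taken as 1 mouse, so that p-values measure the spread between mice. The design asks how age acts on each diet, how diet acts at each age, and whether one effect depends on the other.

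Omega-hydroxylation adds a hydroxyl group to the last carbon of a fatty acid, after which alcohol and aldehyde dehydrogenases turn the product into a dicarboxylic acid that is shortened in peroxisomes. Murine Cyp4a10 and Cyp4a14 are classical targets of PPARα, the nuclear receptor that senses fatty acids and drives fat oxidation in hepatocytes, whereas Cyp4a12a and Cyp4a12b are expressed more in male than in female liver and respond to androgen and growth hormone. Cyp4f enzymes also inactivate leukotrienes and other lipid mediators, and Cyp4v3 is the mouse counterpart of CYP4V2, a fatty acid hydroxylase whose loss in humans causes a retinal crystal disease.

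The 6 Cyp4a genes lie side by side on chromosome 4 of mm10 (GRCm38), Cyp4a12a at chr4:115299046-115332815 and Cyp4a12b at chr4:115411624-115439034, followed by Cyp4a14 at chr4:115486200-115496141 on the minus strand, Cyp4a10 at chr4:115518287-115533649, Cyp4a31 at chr4:115563649-115579015 and Cyp4a32 at chr4:115600938-115622366. The 3 Cyp4f genes lie on chromosome 17, Cyp4f15 at chr17:32685659-32703349 on the plus strand, Cyp4f14 at chr17:32905070-32917087 and Cyp4f13 at chr17:32924688-32947361, both on the minus strand. Cyp4v3 occupies chr8:45305802-45333196 on the minus strand. The Cyp4a genes other than Cyp4a14 are on the plus strand, and no member has an annotated exon of another gene on its opposite strand.

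Similarity between members decides how well their reads can be told apart, so the coding stretch around the cysteine that binds the haem iron is shown, with the codon of that cysteine in capitals and 60 bases in all, read 5′ to 3′ from the GENCODE transcripts of GRCm38. It starts at coding base 1336 in Cyp4a10, 1333 in Cyp4a12a, 1330 in Cyp4a14, 1372 in Cyp4f14 and 1369 in Cyp4v3.
Cyp4a10, Cyp4a31 and Cyp4a32: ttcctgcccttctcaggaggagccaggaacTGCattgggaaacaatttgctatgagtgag
Cyp4a12a and Cyp4a12b: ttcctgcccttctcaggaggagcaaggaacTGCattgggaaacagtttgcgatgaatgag
Cyp4a14: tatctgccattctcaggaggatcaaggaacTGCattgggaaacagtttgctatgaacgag
Cyp4f14: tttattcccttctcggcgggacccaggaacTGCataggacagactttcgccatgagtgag
Cyp4v3: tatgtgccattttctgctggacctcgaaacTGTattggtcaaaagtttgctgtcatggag
Cyp4a10, Cyp4a31 and Cyp4a32 were identical over this stretch, and so were Cyp4a12a and Cyp4a12b. Against Cyp4a10, the stretch differed at 4 bases in the Cyp4a12 pair, 8 in Cyp4a14, 16 in Cyp4f14 and 21 in Cyp4v3.

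Over whole coding sequences, Cyp4a12a and Cyp4a12b differed at 23 of 1524 aligned bases, an identity of 98.5%. Cyp4a10 was 97.2% identical to Cyp4a32 and 96.6% to Cyp4a31, while Cyp4a31 and Cyp4a32 were 96.0% identical. Cyp4a14 stood farther off, at 76.7% identity to Cyp4a10. The nearest Cyp4f pair, Cyp4f14 and Cyp4f15, reached 82.1%, and Cyp4v3 lay between 55.9% and 58.7% of the other members. Cut into overlapping words of 31 bases, 62.2% of the Cyp4a12a transcript and 62.9% of Cyp4a12b recurred in another gene, as did 65.3% of Cyp4a32, 45.5% of Cyp4a10 and 33.7% of Cyp4a31. The shared fraction was 2.07% in Cyp4a14, 9.76% in Cyp4f13, 8.12% in Cyp4f14, 7.86% in Cyp4f15 and 7.49% in Cyp4v3. Counts of the 5 near-identical Cyp4a genes may therefore hold reads of a neighbour or lack reads that fit 2 places, and Cyp4a14 is the member of the Cyp4a group least touched by this.

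The libraries held 20253719 to 36427856 counts over genes. ND and HFD libraries came in separate tables, and the headers show that the ND table was counted with a strand option while the HFD table was not, so diet and counting cannot be told apart; age comparisons stay within a table. Across tested genes with under 5% of shared words the median diet difference on the log2 scale was -0.03 in young and -0.01 in old liver, but among genes with 50 to 80% it was 0.68 at both ages, and the median age difference stayed between -0.02 and 0.09 in every class. Old HFD replicate 4 stood apart, with 2025 CPM (counts scaled to a common library size) of Lcn2 and 9771 CPM of Saa1, both acute-phase genes, where the other 17 libraries held at most 208 and 1084 CPM. All 9 hepatocyte markers found in the tables were expressed. Their summed level ran from 89226 to 100107 CPM in young ND, 106663 to 137259 in old ND, 91295 to 114285 in young HFD and 72895 to 101052 in old HFD livers. These are bulk livers, in which fewer hepatocytes and less RNA per hepatocyte cannot be told apart.

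Per kilobase of transcript, which permits comparison between genes, Cyp4v3 led in young ND liver with 207 ± 30.1 CPM per kb (SD, n = 4), ahead of Cyp4a14 with 171 ± 61.9 and Cyp4f14 with 166 ± 13.9, and these neighbours did not differ beyond their spread. Cyp4a10 and Cyp4a12a followed at 119 ± 32.2 and 109 ± 23.7 CPM per kb, again within their spread. Cyp4a31 was at the bottom in every group, from 0.540 ± 0.196 CPM per kb in old ND to 9.46 ± 2.14 in young HFD liver. In young HFD liver the order changed: Cyp4a14 came first with 289 ± 81.3 CPM per kb, clear of Cyp4a10 with 155 ± 35.8, which overlapped Cyp4v3 with 140.2 ± 15.4. In both old groups Cyp4v3, Cyp4a14 and Cyp4f14 again held the top places, and neighbours among them overlapped. The 6 Cyp4a genes together made up 55.7 to 71.9% of the summed level per kb in young HFD and 38.9 to 52.8% in young ND liver, and in old liver 18.4 to 49.9% on ND and 29.9 to 54.9% on HFD. Young HFD liver was thus the group in which the Cyp4a genes took the largest share, above each of the 13 other libraries. Its lead over old HFD liver was only the gap between 55.7 and 54.9%. ND and HFD libraries were counted in different ways, so diet and counting cannot be told apart in this ranking.

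**Figure D1:**
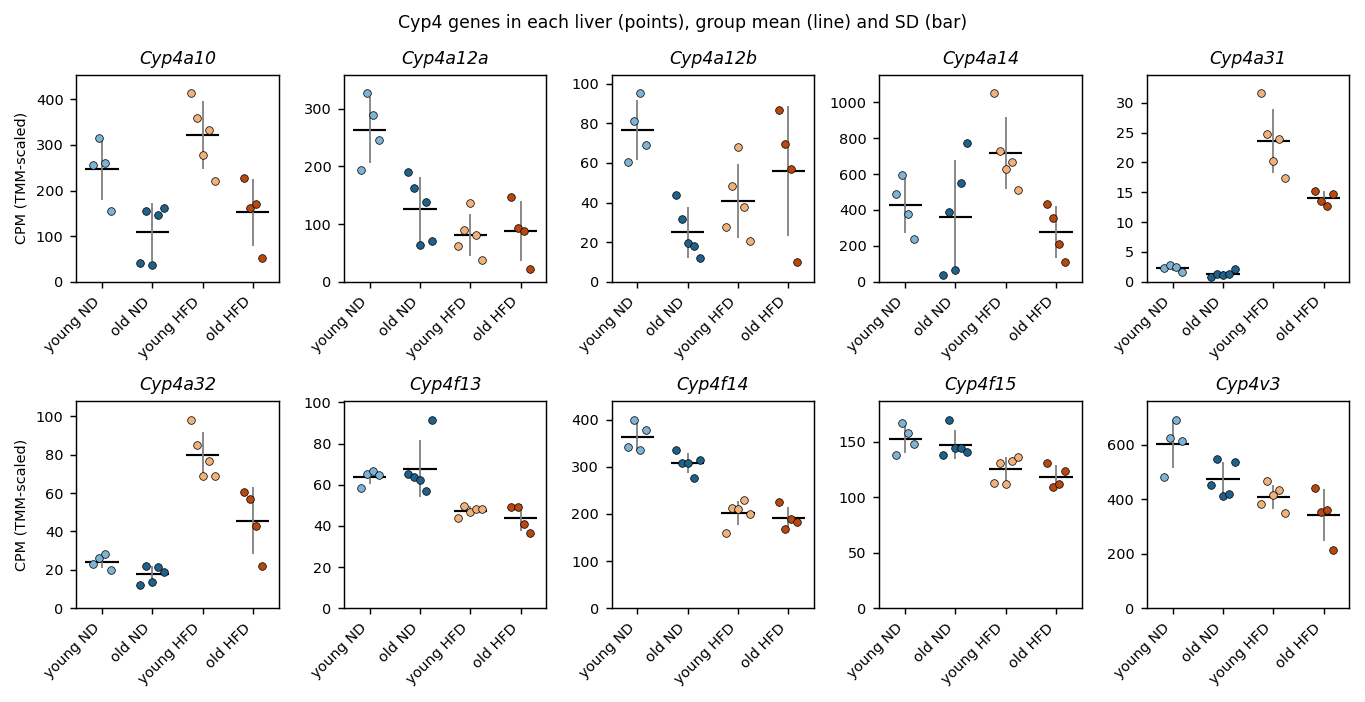
Each panel plots 1 gene, with its level in CPM after TMM scaling on the vertical axis and the 4 groups on the horizontal axis; points are livers, lines are group means and bars are SDs. Cyp4a14 spans 37.5 to 770.3 CPM among old ND livers, whereas Cyp4f14 stays between 276 and 335 there.

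Cyp4a14 had the highest mean per kb of the Cyp4a genes in every group, though not in every liver, and the least shared sequence. It was measured at 492, 595, 377 and 238 CPM in the 4 young ND livers and at 37.5, 388, 67.0, 551 and 770.3 CPM in the 5 old ND livers. Young HFD livers held 1049, 731, 631, 668 and 511 CPM, and old HFD livers 432, 356, 209 and 112 CPM. Old ND livers were thus divided, with replicates 1 and 3 below every other liver of the series and replicate 5 above every young ND liver. On HFD all 4 old livers lay below all 5 young livers. The fitted age difference on HFD was -1.37 ± 0.68 on the log2 scale (SE), with an adjusted p of 0.188 in edgeR's quasi-likelihood test, so the separation did not pass the threshold of 0.05. Fitted to the HFD groups alone, the same difference had an adjusted p of 0.0373 in edgeR. On ND the age difference was -0.23 ± 0.66 (edgeR, adjusted p = 0.859), and without 1 library it ran from -0.70 (old ND replicate 5) to 0.063 (old ND replicate 1). In limma voom it was -1.28 (adjusted p = 0.195). Without old HFD replicate 4 the age difference on HFD was -1.10 (edgeR, adjusted p = 0.388).

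Cyp4a10, the other classical PPARα target, read 257, 314, 261 and 155 CPM in young ND livers, against 42.0, 155, 36.7, 147 and 162 CPM in old ND livers. Young HFD livers gave 413, 359, 279, 333 and 220.0 CPM, and old HFD livers 228, 161, 169.5 and 51.2 CPM. The lowest ND values again belonged to old replicates 1 and 3, and on each diet the age groups overlapped in single livers. The mean was 246 ± 66.6 CPM in young and 108 ± 63.4 CPM in old ND livers, and 321 ± 74.2 CPM in young and 152 ± 73.8 CPM in old HFD livers (SD). Neither age difference passed the test: it was -1.18 ± 0.46 on ND (edgeR, adjusted p = 0.103) and -1.07 ± 0.47 on HFD (edgeR, adjusted p = 0.131). In limma voom with quality weights the ND difference was -1.52 with an adjusted p of 0.0204. Without old HFD replicate 4 the HFD difference was -0.77 (edgeR, adjusted p = 0.302).

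Cyp4a31 and Cyp4a32 sit next to Cyp4a10 and are nearly identical to it, with less known of their own functions. Cyp4a31 was low on ND, at 2.39, 2.75, 2.55 and 1.66 CPM in young and 0.767, 1.29, 1.18, 1.39 and 2.11 CPM in old livers. On HFD it was 31.5, 24.8, 20.2, 23.95 and 17.5 CPM in young and 15.2, 13.5, 12.7 and 14.7 CPM in old livers. Every old HFD liver was below every young HFD liver, and the age groups on ND overlapped through old replicate 5. Cyp4a31 was lower with age on both diets, with a log2 difference of -0.78 ± 0.24 on ND (edgeR, adjusted p = 0.0394) and -0.75 ± 0.18 on HFD (edgeR, adjusted p = 0.00733). The HFD call held in every alternative fit that kept the gene apart from its neighbours and without each library in turn. The ND call was lost in 7 of the 18 fits that left out 1 library, with adjusted p up to 0.110 in edgeR, and in limma voom (adjusted p = 0.0830) and in an edgeR fit to the groups compared (adjusted p = 0.0688).

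Cyp4a32 was measured at 98.3, 85.3, 68.9, 76.6 and 69.0 CPM in young HFD and at 60.4, 56.9, 43.0 and 21.9 CPM in old HFD livers. The groups did not overlap, and the fall of 0.80 ± 0.24 on the log2 scale passed the test (edgeR, adjusted p = 0.0290). Without old HFD replicate 4, the lowest liver, it was -0.57 with an adjusted p of 0.0538 in edgeR. The call was also lost without old HFD replicate 3, young HFD replicate 1 or young HFD replicate 2 (adjusted p from 0.0580 to 0.0733 in edgeR), and in a fit to the groups compared (adjusted p = 0.0677 in edgeR). On ND the gene stood at 23.1, 26.0, 28.2 and 19.9 CPM in young and 11.9, 22.2, 13.5, 21.3 and 18.8 CPM in old livers, an overlapping pair of groups with a difference of -0.47 ± 0.25 (edgeR, adjusted p = 0.227).

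Of the Cyp4a12 pair, male-biased enzymes that form the vasoactive eicosanoid 20-HETE, Cyp4a12b was lower with age on ND and Cyp4a12a was not called. Cyp4a12a was 193, 326, 288 and 246 CPM in young ND and 191, 162, 64.5, 139 and 70.1 CPM in old ND livers. Cyp4a12b was 60.2, 81.2, 95.0 and 68.9 CPM in young ND and 43.9, 31.8, 19.5, 17.8 and 12.0 CPM in old ND livers. For both genes the groups did not overlap, though for Cyp4a12a only by the gap between 191 and 193 CPM. Cyp4a12b fell by 1.61 ± 0.50 on the log2 scale, a 3.06-fold decrease that just passed (edgeR, adjusted p = 0.0477), and Cyp4a12a differed by -1.07 ± 0.46 (edgeR, adjusted p = 0.143). The Cyp4a12b call was lost in 13 of the 18 fits that left out 1 library, where its adjusted p ran from 0.0116 to 0.110 in edgeR, and with no filter on low counts (adjusted p = 0.0759 in edgeR).

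On HFD neither gene of the pair was called with age. Cyp4a12a was 62.9, 89.4, 137, 81.1 and 37.5 CPM in young and 148, 94.1, 88.2 and 21.5 CPM in old HFD livers. Cyp4a12b was 27.7, 48.2, 68.2, 37.9 and 20.7 CPM in young and 86.5, 69.6, 56.7 and 9.99 CPM in old HFD livers. Both were lowest in old HFD replicate 4, and the other 3 old livers lay in the upper part of the young range or above it. Fitted age differences were 0.11 ± 0.46 for Cyp4a12a and 0.46 ± 0.49 for Cyp4a12b (edgeR, adjusted p = 0.908 and 0.567). Without old HFD replicate 4 they were 0.44 and 0.82 (edgeR, adjusted p = 0.550 and 0.199), and without old HFD replicate 1 they were -0.28 and 0.15. The direction of Cyp4a12a also turned without young HFD replicate 5 (-0.073).

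Among the Cyp4f genes and Cyp4v3, none was called with age. Cyp4f14 was 342, 400.3, 336 and 378 CPM in young ND and 335, 309, 309, 276 and 315 CPM in old ND livers. The groups were separated only by the gap between 335 and 336 CPM, and the difference of -0.24 ± 0.10 did not pass the test (edgeR, adjusted p = 0.140). Cyp4f13 and Cyp4f15 differed by 0.09 ± 0.12 and -0.05 ± 0.09 with age on ND, and on HFD the 3 Cyp4f differences lay between -0.11 and -0.08, none called. Cyp4v3 averaged 604 ± 87.7 CPM in young and 474 ± 64.0 CPM in old ND livers, a difference of -0.35 ± 0.16 (edgeR, adjusted p = 0.166), and -0.25 ± 0.16 on HFD (edgeR, adjusted p = 0.311). Without old HFD replicate 4 the Cyp4v3 difference on HFD was -0.072, and without old HFD replicate 1 it was -0.42.

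With age, then, 2 of the 10 genes were called on ND, Cyp4a12b and Cyp4a31, both lower, where 11.4% of all tested genes passed, 6.89% upward and 4.52% downward. On HFD 2 of 10 were called, Cyp4a31 and Cyp4a32, both lower, where 18.1% of all tested genes passed, 11.6% upward and 6.51% downward. Age groups did not overlap for Cyp4a12a, Cyp4a12b and Cyp4f14 on ND, against a background of 14.5%, and for Cyp4a14, Cyp4a31 and Cyp4a32 on HFD, against 18.4%. The median age difference of the 6 Cyp4a genes was -0.93 on ND and -0.78 on HFD, beside 0.02 and -0.00075 for all genes tested, and that of the 3 Cyp4f genes was -0.05 and -0.08. Leukocyte markers moved the other way: 5 of 10 were higher with age on ND and 9 of 10 on HFD, their summed level running from 168 to 258 CPM in young and 233 to 339 CPM in old ND livers, and from 167 to 269.7 CPM in young and 317 to 526.3 CPM in old HFD livers, with none at 0 in every library. Among the hepatocyte markers 2 of 9 were called higher with age on ND, and 1 higher and 2 lower with age on HFD. Leaving out 1 library lost the ND call of Alb in 11 of 18 fits and the HFD call of Fgb, the higher marker, in 6. Without old HFD replicate 4 Fgb stood at 0.42. Of 6 stellate cell markers 1 was higher with age on ND and none on HFD, and of 5 cholangiocyte markers none was higher on ND and 2 on HFD. Of the 9 leukocyte markers on HFD, S100a8 lost its call without old HFD replicate 4, and Cd79a in 3 of 18 fits without 1 library. Of the 5 on ND, Cd8a and Cd68 each lost their call in 6 of 18 such fits, Adgre1 in 2 and Ptprc in 1. The stellate marker called on ND, Des, lost its call in 4. Single old HFD livers stood apart in these lists: summed stellate markers were 608 CPM in replicate 3 and 219 to 247 CPM in the other 3, and summed cholangiocyte markers were 246 CPM in replicate 4 and 47.7 to 123 CPM in the others. The part of these markers in the age differences was not tested.

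**Figure D2:**
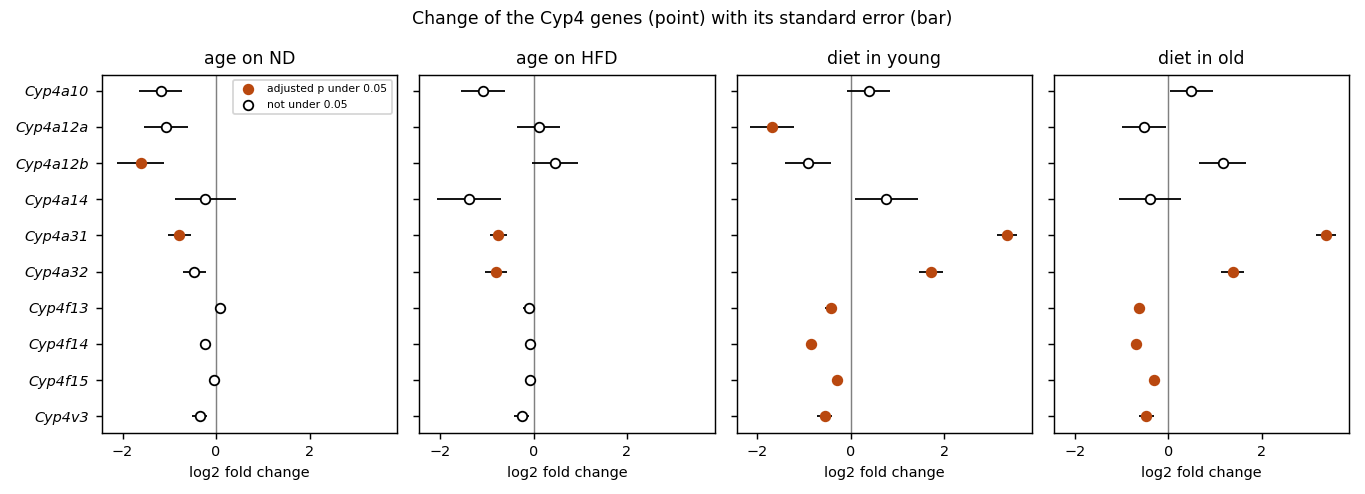
The horizontal axis gives the log2 fold change of each gene in 4 comparisons, old over young on each diet and HFD over ND at each age; points are estimates, bars are standard errors and filled points have an edgeR adjusted p under 0.05. The filled points with age are Cyp4a12b and Cyp4a31 on ND and Cyp4a31 and Cyp4a32 on HFD, all below 0.

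Because reads of near-identical genes can be credited to either copy, the same fit was made on sums. Cyp4a10, Cyp4a31 and Cyp4a32 together counted 282, 343, 291 and 176 CPM in young ND and 54.7, 179, 51.4, 169 and 183 CPM in old ND livers. Young HFD livers held 543, 469.6, 368, 433 and 306 CPM of this sum and old HFD livers 304, 231, 225 and 87.7 CPM. Old HFD livers were all below the young ones, yet neither age difference passed, with -1.10 ± 0.40 on ND (edgeR, adjusted p = 0.0847) and -1.0 ± 0.41 on HFD (edgeR, adjusted p = 0.106). Cyp4a12a and Cyp4a12b together differed by -1.18 ± 0.47 with age on ND (edgeR, adjusted p = 0.114) and by 0.23 ± 0.47 on HFD (edgeR, adjusted p = 0.783). With the copies summed, none of the members or sums was called with age on either diet in edgeR fitted to all libraries. The sum of Cyp4a10, Cyp4a31 and Cyp4a32 was called with age on ND in limma voom (adjusted p = 0.0180), and that of the Cyp4a12 pair in an edgeR fit to the groups compared (adjusted p = 0.0454). Without old HFD replicate 4 both sums were called on ND (edgeR, adjusted p = 0.0489 and 0.0405).

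Members differed in direction between the diets. Cyp4f13, Cyp4f14, Cyp4f15 and Cyp4v3 were lower on HFD at both ages, Cyp4a31 and Cyp4a32 were higher at both, and Cyp4a12a was lower in young liver, while Cyp4a10, Cyp4a12b and Cyp4a14 were not called. Thus 7 of 10 genes were called in young liver, 2 higher and 5 lower, where the share of all tested genes was 20.1%, made up of 13.8% above and 6.29% below. In old liver the count was 6 of 10, with 2 above and 4 below the ND level, where 32.1% of all genes passed, 19.3% above and 12.8% below. The 7 genes called in young liver all had groups that did not overlap (28% of all genes), and in old liver 4 genes did, Cyp4a31, Cyp4f13, Cyp4f14 and Cyp4f15 (21.6% of all genes).

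Cyp4f14, which inactivates leukotriene B4, had the clearest decrease. Against the ND values above, young HFD livers held 159, 212, 211, 229 and 199 CPM and old HFD livers 225, 168, 188 and 182 CPM. All 9 HFD livers lay below all 9 ND livers, the highest HFD value being 229 and the lowest ND value 276. Cyp4f14 fell by 0.85 ± 0.10 on the log2 scale in young liver (edgeR, adjusted p = 2.5e-06), a 1.80-fold decrease, and by 0.69 ± 0.11 in old liver (edgeR, adjusted p = 3.92e-05).

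Cyp4f13 ranged from 56.7 to 91.6 CPM in the 9 ND livers and from 36.3 to 49.9 CPM in the 9 HFD livers, again without overlap. It fell by 0.43 ± 0.12 in young and 0.62 ± 0.12 in old liver (edgeR, adjusted p = 0.0109 and 0.000389). Cyp4f15 ranged from 138 to 169.8 CPM on ND and from 109 to 136 on HFD. Its differences were -0.29 ± 0.09 and -0.31 ± 0.09 (edgeR, adjusted p = 0.0214 and 0.00934), and the 2 tables counted it on transcripts of 2118 and 2128 bases. In young liver the Cyp4f15 call was lost without young ND replicate 2 or 3 or young HFD replicate 1 or 3 (edgeR, adjusted p from 0.0626 to 0.100), and with TMM scaling over genes with little shared sequence (edgeR, adjusted p = 0.0666).

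Cyp4v3 was 483, 626, 692 and 615 CPM in young ND and 384, 465, 414, 433 and 348 CPM in young HFD livers, 2 groups without overlap and a difference of -0.56 ± 0.16 (edgeR, adjusted p = 0.0173). Without young ND replicate 3 this difference was -0.49 (edgeR, adjusted p = 0.0703). Old livers held 453, 548, 414, 420.4 and 536 CPM on ND and 443, 354, 361 and 213 CPM on HFD. The old groups overlapped, and of their difference of -0.47 ± 0.16 (edgeR, adjusted p = 0.0358) there remained -0.28 without old HFD replicate 4 (edgeR, adjusted p = 0.117). The call in old liver was lost in 6 of 18 fits without 1 library, in limma voom (adjusted p = 0.0963) and in an edgeR fit to the groups compared (adjusted p = 0.107). Like the Cyp4f genes, Cyp4v3 has 5 to 20% of its words in other genes, a class in which the median diet difference was 0.02 in young and 0.03 in old liver. The lower quartile of that class was -0.12 in young and -0.16 in old liver. Among the hepatocyte markers 1 of 9 was called higher with diet, Apoa1, and 1 lower in young liver. In old liver 3 were lower and none higher. The Apoa1 call was lost in 9 of 18 fits without 1 library and in 3 of 10 other settings. The summed level of these markers did not overlap between the diets in old liver. Its largest part was Alb, with a mean of 77848 CPM on ND and 48653 CPM on HFD in old liver. Stellate markers were higher with diet for 2 of 6 in young liver and none in old liver, and cholangiocyte markers for none of 5 and 1 of 5. The 2 stellate markers, Col1a1 and Col3a1, lost their calls in 3 and 4 of 18 fits without 1 library. Leukocyte markers were higher with diet for 1 of 10 in young and 3 of 10 in old liver, and endothelial markers lower for 1 of 5 and 2 of 5, where 13.8% of all genes in young and 19.3% in old liver were called higher and 6.29% and 12.8% lower. Of the 3 leukocyte markers in old liver, the call of S100a8 rested on old HFD replicate 4, being 3.36 ± 1.05 with that library and -0.24 without it (edgeR, adjusted p = 0.0233 and 0.777), and that of Clec4f was lost in 3 of 18 fits without 1 library. The endothelial marker called in young liver, Clec4g, lost its call in 13 of 18. The part of these markers in the diet differences was not tested.

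**Figure D3:**
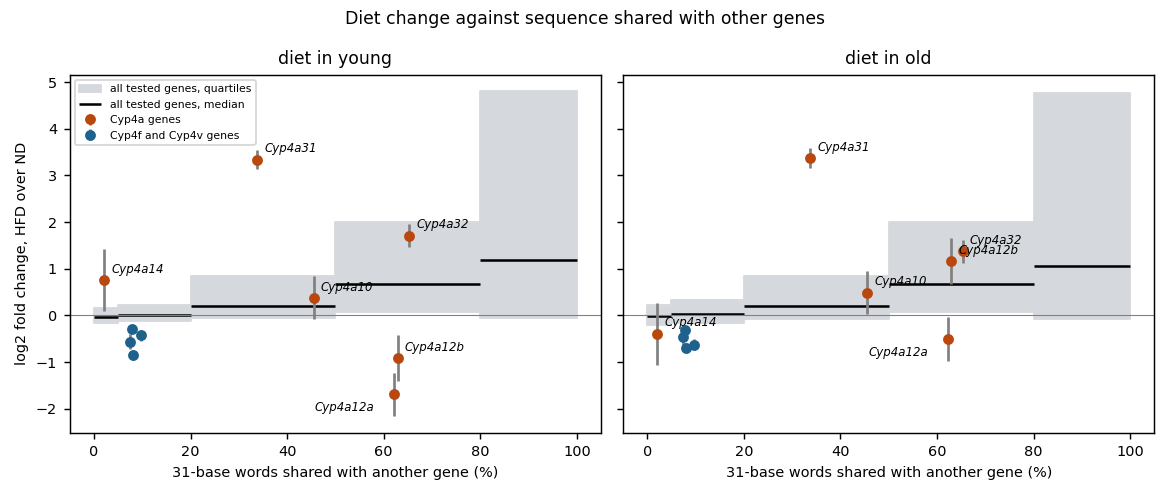
The horizontal axis is the percentage of 31-base words of a transcript that recur in another gene, and the vertical axis the log2 fold change of HFD over ND in young (left) and old (right) liver; black lines are medians and grey boxes quartiles over all tested genes of each class, points are the members with SE. The 4 Cyp4f and Cyp4v points lie below 0, while Cyp4a31 lies at 3.34 and 3.37.

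Cyp4a31 was 10.1-fold higher on HFD in young liver and 10.4-fold higher in old liver, differences of 3.34 ± 0.21 and 3.37 ± 0.21 (edgeR, adjusted p = 1.8e-10 and 1.45e-10). The highest of the 9 ND livers had 2.75 CPM and the lowest of the 9 HFD livers 12.7 CPM. Cyp4a32 was higher by 1.71 ± 0.25 in young and 1.38 ± 0.24 in old liver (edgeR, adjusted p = 4.82e-05 and 0.000317), with overlap in old liver because old HFD replicate 4 held 21.9 CPM against 22.2 in an ND liver. Cyp4a10, which dominates this trio, was not called: it differed by 0.38 ± 0.46 in young and 0.49 ± 0.46 in old liver (edgeR, adjusted p = 0.629 and 0.438). In old liver it ran from 0.23 to 0.80 without 1 library and was 0.94 in limma voom, never called. The sum of the trio differed by 0.63 ± 0.40 and 0.74 ± 0.40 (edgeR, adjusted p = 0.315 and 0.172), and in old liver without replicate 4 of the HFD group by 1.01 (edgeR, adjusted p = 0.0602).

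Ratios between the near-identical genes differed between the tables. Counts of Cyp4a31 were 0.829 to 3.21% of those of Cyp4a10 in the 9 ND livers and 6.68 to 8.37% in 8 of the 9 HFD livers, old HFD replicate 4 reaching 28.7%. Cyp4a12b counts were 12.8 to 32.985% of Cyp4a12a counts on ND and 44.1 to 74.0% on HFD, with no overlap. Cyp4a32 counts were 8.28 to 36.9% of Cyp4a10 on ND and 23.0 to 42.8% on HFD, where the ND livers above 15% were the old replicates 1 and 3 with low Cyp4a10. Whether diet or the way of counting moved these ratios cannot be told apart.

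**Figure D4:**
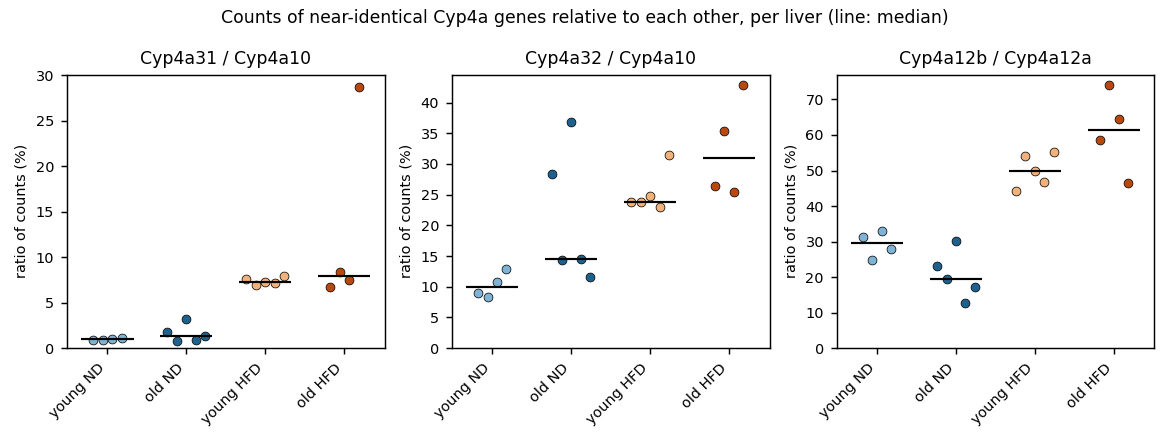
The vertical axes give counts of 1 gene as a percentage of the counts of its near-identical neighbour, for each liver (points) in the 4 groups, with the group median as a line. Cyp4a31 over Cyp4a10 lies at or under 3.21% in ND livers and at 6.68% or more in HFD livers, and Cyp4a12b over Cyp4a12a separates the diets as well.

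Cyp4a12a was 3.23-fold lower on HFD in young liver, where all 5 HFD livers (37.5 to 137 CPM) lay below all 4 ND livers (193 to 326 CPM), a difference of -1.69 ± 0.47 (edgeR, adjusted p = 0.0162). The call was kept without each library in turn. Cyp4a12b differed by -0.92 ± 0.49 in young liver (edgeR, adjusted p = 0.223), and the sum of the pair by -1.48 ± 0.47 (edgeR, adjusted p = 0.0363). The call on the sum was lost in 7 of the 18 fits that left out 1 library (edgeR, adjusted p up to 0.0903) and in 2 of 10 other settings. In old liver neither was called: Cyp4a12a differed by -0.51 ± 0.47, Cyp4a12b by 1.16 ± 0.49 and their sum by -0.07 ± 0.47 (edgeR, adjusted p = 0.431, 0.0849 and 0.930). Without 1 library Cyp4a12a ran from -0.89 (old HFD replicate 1) to -0.17 (old HFD replicate 4), never called. Cyp4a12b became called in old liver without old HFD replicate 4 (1.52, edgeR adjusted p = 0.00911) or without old ND replicate 1 (1.46, edgeR adjusted p = 0.0426).

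Cyp4a14, the member whose counting is least open to shared reads, was not called for diet. It differed by 0.76 ± 0.67 in young liver, where the groups overlapped because 1 ND liver at 595 CPM exceeded 1 HFD liver at 511 CPM (edgeR, adjusted p = 0.489). In old liver it differed by -0.39 ± 0.66 (edgeR, adjusted p = 0.692). That direction was not stable: the difference was 0.86 in limma voom, 0.10 without old ND replicate 5 and -0.68 without old ND replicate 1, never called.

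Whether age acted differently on the 2 diets was tested as an interaction, in which a constant difference between the tables cancels for each gene. None of the 10 genes was called, where 0.126% of all genes were, 18 in number, 0.063% higher and 0.063% lower. DESeq2 and limma voom also called none of the 10. At an unadjusted p under 0.05 edgeR had 1 member, Cyp4a12b, whose age difference was 2.08 ± 0.69 higher on HFD than on ND with an adjusted p of 0.252. The interaction was 1.18 ± 0.65 for Cyp4a12a and -1.14 ± 0.94 for Cyp4a14 (edgeR, adjusted p = 0.511 and 0.676). The Cyp4a14 value turned to 0.15 in limma voom and ran from -1.44 without old HFD replicate 1 to -0.66 without old ND replicate 5, while that of Cyp4a12a ran from 0.79 to 1.51 without old HFD replicate 1 or 4. For Cyp4f14 it was 0.16 ± 0.15 (edgeR, adjusted p = 0.718). The sum of the Cyp4a12 pair gave 1.41 ± 0.66 (edgeR, adjusted p = 0.428).

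Some members varied alike from liver to liver and others did not. Over the 18 libraries, centred on the mean of each table, log2 levels of Cyp4a10 correlated with those of Cyp4a14 (Pearson r = 0.91) and Cyp4a32 (r = 0.92), and Cyp4a12a with Cyp4a12b (r = 0.94). Cyp4v3 correlated with genes of the Cyp4a family, with r = 0.78 for Cyp4a10, 0.80 for Cyp4a32 and 0.75 for Cyp4a12a. Within families, Cyp4a14 had r = 0.13 with Cyp4a12b, and Cyp4f13 had r = 0.24 with Cyp4f14 and 0.10 with Cyp4f15. These values describe 18 libraries that also differ in age, and near-identical genes may share reads. Among 10307 genes outside the family with a mean log2 CPM of 2 or more, the 5 most like Cyp4a14 were Ubp1 (r = 0.94), Hsdl2 and Dhrs4 (0.91 and 0.90), Acot1 (0.90) and Emc4 (0.89). Hsdl2 and Dhrs4 encode short-chain dehydrogenases and Acot1 an acyl-CoA thioesterase. The 5 most like Cyp4a12a were Ufl1 (r = 0.89), Map7 and Ugt2b1 (0.87), Aldh1a7 (0.87) and Mxd4 (0.86).

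Of the receptor side, Ppara itself stood at 437 ± 42.0 CPM in young ND, 366 ± 73.3 in old ND, 571 ± 22.2 in young HFD and 397 ± 120 in old HFD livers (SD). It was lower with age on HFD by a log2 difference of -0.52 ± 0.17, with no overlap between groups (edgeR, adjusted p = 0.0391). The call was lost in 8 of the 18 fits that left out 1 library, with adjusted p up to 0.110 in edgeR, and the difference was -0.33 without old HFD replicate 4. Other settings lost it in 3 of 10 fits, with adjusted p up to 0.0851. On ND its age difference was -0.26 ± 0.17, and the diet differences were 0.39 ± 0.17 in young and 0.12 ± 0.17 in old liver (edgeR, adjusted p = 0.336, 0.129 and 0.627). No other gene of the 5 for PPARα and its partners was called in any comparison.

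In a list of 30 further PPARα targets, 2 were lower and none higher with age on ND, Cpt2 (-0.44 ± 0.14) and Hadha (-0.34 ± 0.10), enzymes of mitochondrial fatty acid oxidation. That count stands beside 4.52% of all genes called lower, and leaving out 1 library lost the call of Cpt2 in 11 and that of Hadha in 6 of 18 fits. On HFD 13 of 30 were lower with age and none higher, beside 6.51% of all genes called lower. The largest of these decreases were in Acot1 (-1.41 ± 0.46), Fabp1 (-1.14 ± 0.31), the fatty acid binding protein of liver, and Acaa1a (-0.81 ± 0.21), a peroxisomal thiolase. The Acot1 call was lost in 13 of 18 fits without 1 library (edgeR, adjusted p up to 0.117), whereas those of Fabp1 and Acaa1a were kept in all 18 and lost in a fit to the groups compared (edgeR, adjusted p = 0.0804 and 0.0652). Of the 13 targets, 6 kept their call without old HFD replicate 4 and 8 without old HFD replicate 3 or in a fit to the groups compared. The median age difference of the list was -0.41 on ND and -0.52 on HFD. With diet 5 were higher in young and 4 in old liver, none lower, beside 13.8% and 19.3% of all genes called higher, and the median was 0.19 and 0.08. Hadhb and Acaa1a led at both ages, but 65.7% and 46.0% of their words are shared with other genes. Among the 17 targets with under 5% of shared words and no exon on the opposite strand, 2 were higher with diet in young liver, Cpt1a (0.71 ± 0.13) and Fgf21 (1.66 ± 0.45), and 2 in old liver, Cpt1a (0.61 ± 0.13) and Cd36 (0.62 ± 0.20), Cpt1a being singled out here after its values were seen. The Cd36 call was lost in 3 of 18 fits without 1 library. Of the same 17, 1 was lower with age on ND and 6 on HFD.

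**Figure D5:**
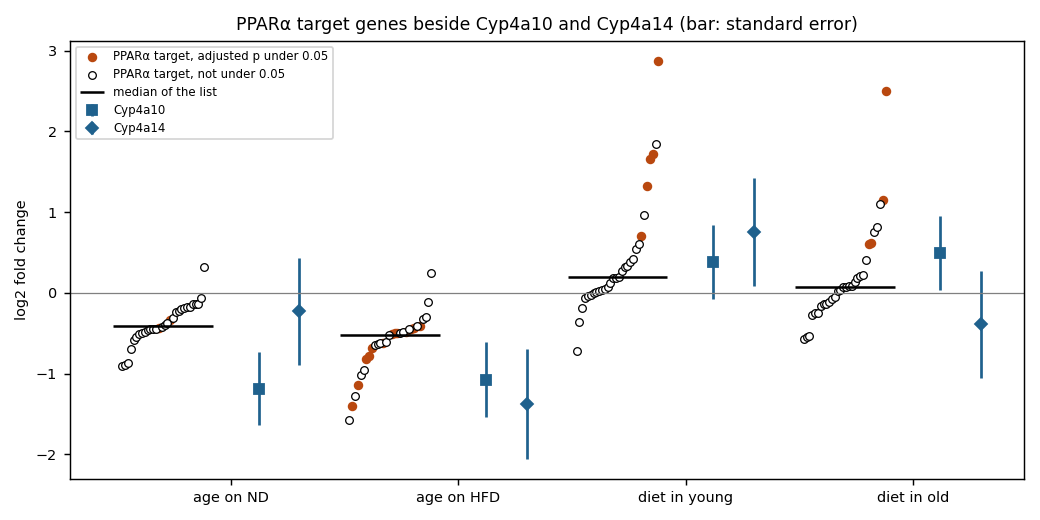
The vertical axis gives the log2 fold change of 30 PPARα target genes (circles, filled where the edgeR adjusted p is under 0.05, line at the median) beside Cyp4a10 and Cyp4a14 (blue symbols with SE) in 4 comparisons. The list is centred on -0.52 for age on HFD, where Cyp4a10 lies at -1.07 and Cyp4a14 at -1.37.

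P450 enzymes draw electrons from NADPH-cytochrome P450 reductase, encoded by Por, which was not called in any comparison and stood between 178 ± 36.1 and 219 ± 52.4 CPM in the 4 groups. Of the 4 electron donor genes, Cyb5b and Cyb5r3, for cytochrome b5 of the outer mitochondrial membrane and its reductase, were lower with age on HFD (-0.47 ± 0.14 and -0.46 ± 0.13), where 6.51% of all genes were called lower. Leaving out 1 library lost the call of Cyb5b in 3 and that of Cyb5r3 in 2 of 18 fits, and Cyb5b was at -0.31 without old HFD replicate 4. Both were lower with diet in old liver (-0.63 ± 0.14 and -0.54 ± 0.13), and Cyb5b in young liver (-0.54 ± 0.14), beside 12.8% and 6.29% of all genes called lower. Of 14 genes that process the omega-hydroxylated acids, 3 were lower with age on HFD, beside the same 6.51%: Acsl1 (-0.92 ± 0.20), an acyl-CoA synthetase, Abcd3 (-0.63 ± 0.15), a peroxisomal transporter, and Sucla2 (-0.37 ± 0.10), whose call was lost without old HFD replicate 4. With age on ND 1 of the 14 was called, Abcd2, which was higher (1.48 ± 0.37), a call lost in 4 of 18 fits without 1 library, and 1 of 14 is near the 6.89% of all genes called higher. Abcd2 was also the gene called with diet in young liver (2.04 ± 0.38), where 13.8% of all genes were higher. In old liver 3 were lower, beside 12.8% of all genes, Abcd3 (-0.54 ± 0.15), Adh1 (-0.41 ± 0.14) and Adh5 (-0.36 ± 0.09), of which the Adh1 call was lost in 4 of 18 fits without 1 library and in 4 of 10 other settings.

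Among 12 genes with male-biased expression in liver, the class of the Cyp4a12 pair, 2 were lower with age on ND, Elovl3 (-1.39 ± 0.32) and Cyp2d9 (-0.55 ± 0.17), and 1 on HFD, Nudt7 (-0.70 ± 0.18), beside 4.52% and 6.51% of all genes called lower. The Cyp2d9 call was lost in 10 of 18 fits without 1 library and in 3 of 10 other settings, while the Elovl3 call was kept in all of them. With diet in young liver 3 were lower, Elovl3 (-1.79 ± 0.32), Cyp7b1 (-1.10 ± 0.26) and Nudt7 (-0.74 ± 0.18), and 2 higher, Ugt2b38 and Mup20. In old liver 5 were lower with diet, led by Hsd3b5 (-3.67 ± 1.17), whose call was lost in 3 of 18 fits without 1 library and in limma voom (adjusted p = 0.248), and the same pair, Ugt2b38 and Mup20, was higher. The share of all genes called lower with diet was 6.29% in young and 12.8% in old liver. More than 50% of the words of Ugt2b38 and Mup20 are shared with other genes. Of 10 female-biased genes tested, none was called with age on ND and 3 were lower on HFD, while 6 were higher with diet at each age, where 13.8% of all genes in young and 19.3% in old liver were called higher. Only 3 of those 10 have under 5% of shared words and no exon on the opposite strand, of which 1 was higher with diet in young liver, Hao2, and 1 in old liver, Cyp17a1. The Hao2 call was lost in 4 of 18 fits without 1 library, and that of Cyp17a1 in a fit to the groups compared (edgeR, adjusted p = 0.0620).

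Of 10 further Cyp4 genes in the tables, 5 had enough counts to be tested. In young ND liver their mean levels ran from 0.701 CPM for Cyp4f18 to 24.3 CPM for Cyp4b1. Cyp4f18, a leukotriene hydroxylase of neutrophils and other leukocytes, was higher with age on ND (1.45 ± 0.32) and on HFD (1.68 ± 0.29), from 0.701 ± 0.278 CPM in young ND to 1.90 ± 0.618 in old ND livers (SD), and exons of another gene lie opposite 181 bases of it. Cyp4f16 was higher with age on both diets (1.05 ± 0.28 and 1.33 ± 0.24) and with diet at both ages (1.03 ± 0.27 and 1.30 ± 0.24). Cyp4f17 was lower with age on ND (-0.37 ± 0.11) and with diet in young liver (-0.42 ± 0.11), and Cyp4f39 was lower with diet in young liver (-0.97 ± 0.32). Leaving out 1 library lost the age call of Cyp4f17 in 12 of 18 fits, that of Cyp4f16 on ND in 4, and the diet call of Cyp4f39 in 7. The fifth, Cyp4b1, was not called.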

How the data were processed

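PolyA RNA-seq of 18 whole livers was analysed from 2 deposited tables of raw counts per gene, 1 per diet. Per the file headers and the submitters' processing notes the authors aligned reads with STAR to mm10 (GRCm38) and counted exon reads with HOMER, with a strand option for ND and none for HFD. The study's methods name HTSeq for counting, which the headers do not show. How reads that fit several places were treated is not given in the sources used here. Genes were joined by symbol (24537). Counts were filtered with filterByExpr (14275 genes left), scaled with TMM and fitted with edgeR 4.0.16 (R 4.3.3), robust quasi-likelihood, 1 mean per group over all 18 libraries, with Benjamini-Hochberg adjustment over all tested genes and a threshold of 0.05. CPM are TMM-scaled. Words of 31 bases and coding sequences were taken from GENCODE transcripts. "Words shared" is the percentage that recur in another gene, and 24297 symbols matched a transcript. Alternatives were DESeq2 1.42.0, limma 3.58.1 (voom), other scalings and filters, fewer groups in the fit, a replicate block, sums of near-identical genes and leaving out each library. Sums of near-identical genes under the other alternatives were added after seeing the data. Members and gene lists were chosen with earlier results of these data known. All members are named. From each list up to 3 called genes per direction with the largest change may be named, and Ppara and Por always. The genes most like Cyp4f14 in pattern are not reported here. The libraries held 20253719 to 36427856 counts, so counting error is small for the members except Cyp4a31 on ND, with 16 to 66 counts a library.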

Additional observations from a re-analysis of the deposited data

Results flagged for a closer look

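Of the values examined, 5 lay far from the rest of their group by a test on the gap to the nearest other liver. Such a test marks about 1 in 20 groups by chance, and 76 groups of values were examined. Cyp4f13 was 91.6 CPM in old ND replicate 5, where the other 4 old ND livers held 56.7 to 65.2. Cyp4f15 was 169.8 CPM in old ND replicate 2, where the others held 138 to 144. Counts of Cyp4a31 were 28.7% of those of Cyp4a10 in old HFD replicate 4, against 6.68 to 8.37% in the other 3 livers of that group. Counts of Cyp4a32 were 31.4% of Cyp4a10 in young HFD replicate 5, against 23.0 to 24.7%. The summed Cyp4f level was 193 CPM per kb in old HFD replicate 1, against 157 to 162 in its group. What set these livers apart was not tested.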

How the results depend on the processing

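Of the 50 differences of members tested, 474 of 490 values under other settings kept direction and side of the threshold, as did 840 of 900 values without 1 library. Differences that were never called count as kept here, and sums of near-identical genes are not included. A call was lost in 10 of the 490 values and in 35 of the 900. Members called with age on ND numbered 2, but 1 with no filter or in a fit to the groups compared, 0 with near-identical genes summed and 0 with the replicate block. With age on HFD 2 became 0 once such genes were summed. With diet in old liver 6 became 5 in voom, in a fit to the groups compared and with the replicate block, each through the loss of Cyp4v3. Leaving out 1 library gave 0 to 2 members for age on ND and 1 to 2 on HFD. Over all genes, calls for age on ND rose from 1629 to 2904 in voom (666 to 2298 without 1 library). Diet in young liver gave 2865, against 4633 in voom, 4371 in a fit to the groups compared and 1887 with at least 10 counts in every library. Diet in old liver gave 4577, against 2671 in a fit to the groups compared. The interaction gave 18, against 212 in DESeq2, 76 in voom and 0 with the replicate block (6 to 44 without 1 library). Called diet differences were 68.7% higher in young and 60.1% in old liver, but 51.4% and 46.0% under upper-quartile scaling and 80.6% and 67.8% with TMM over genes with little shared sequence.

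Direction turned, without a call on either side, for Cyp4f13 with age on ND (-0.016 in voom, -0.035 to 0.15 without 1 library), Cyp4a14 with diet in old liver (0.86 in voom, -0.68 to 0.10) and in the interaction (0.15 in voom). It turned for Cyp4a12a and the Cyp4a12 sum with age on HFD under the replicate block (-0.16 and -0.045). Leaving out 1 library ranged from -0.28 to 0.44 and -0.12 to 0.58 for these 2, and -0.70 to 0.063 for Cyp4a14 with age on ND. With diet in old liver it ranged from -0.42 to 0.28 for the Cyp4a12 sum and -0.034 to 0.32 for Ppara. S100a8 with diet in old liver was called with all libraries, and without 1 library it ranged from -0.24 to 3.74. Interactions ranged from -0.16 to 0.41 for Cyp4a10, -0.11 to 0.25 for Cyp4a31, -0.088 to 0.030 for Cyp4f15, -0.064 to 0.27 for Cyp4v3 and -0.13 to 0.37 for the Cyp4a10 sum. The causes were not tested. The numbers in the titles did not pair the livers: correlations of deviations between same-numbered livers ran from -0.17 to 0.25. The 40 mean levels gave 80 values under 2 other scalings, of which 60 moved by less than 1 SD and 20 by more.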
